A study of Mus musculus with 384 samples.

Results

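The 8 genes examined here mark or drive the founding of the mouse germ line, and they were followed through single cells of 4 pluripotent stem cell lines: Prdm1 (Blimp1), Prdm14, Tfap2c (AP2γ), Nanos3, Dnd1, Kit, Ifitm3 (Fragilis) and Ifitm1. They were chosen by name, and all 8 were present among the 31617 genes of the count table. The study used single-cell RNA sequencing to ask how homogeneous formative stem (FS) cells are in culture, with 96 cells sequenced from each line. The FS cell lines 5ar1 and 5ar2 were derived from mouse epiblast and kept in AloXR (A3XR in the sample labels), which holds a low dose of activin, the tankyrase inhibitor XAV939 and BMS493, an inverse agonist of retinoic acid receptors. AFX6 is a line of epiblast-derived stem cells (EpiSCs), a later and primed pluripotent state, kept in AFX with more activin, Fgf2 and XAV939. AF32 is an EpiSC line kept in AF, with activin and Fgf2 but without XAV939. None of these media contains BMP, the signal used to induce germ cells. Lines, not cells, are the replicates, with 2 FS lines and 1 line for each EpiSC medium, so line and medium cannot be told apart among EpiSCs.

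Primordial germ cells (PGCs) are set aside from the epiblast when BMP signals from the extraembryonic tissues reach it. Prdm1 and Prdm14, members of the PR domain family, and Tfap2c, an AP-2 transcription factor, act together to repress the somatic programme, restore pluripotency genes and start epigenetic reprogramming. In the embryo a cell that enters the germ line carries all 3 factors at once, which is why they were looked for in the same cell here. Nanos3 and Dnd1 are RNA-binding proteins that protect the new germ cells from death, Kit is the receptor for Kit ligand that supports their survival and migration, and Ifitm3 and Ifitm1 encode small membrane proteins of an interferon-induced family that were among the first surface markers of germ cell precursors.

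Values are CPM, the counts of a gene per 1000000 counts of the cell, and a gene was scored as detected in a cell at 5 CPM or more. Cells with at least 3000000 counts were kept, which left 326 cells, 90 of 5ar1, 90 of 5ar2, 66 of AFX6 and 80 of AF32. Their depth ran from 3022666 to 6686007 counts, and more genes had a count in FS cells (medians of 11371 for 5ar1 and 11567.5 for 5ar2) than in EpiSCs (10328 for AFX6, 10330.5 for AF32). Pou5f1 (Oct4), the central pluripotency factor, was at 5 CPM or more in 88 of 90, 89 of 90, 65 of 66 and 78 of 80 cells of 5ar1, 5ar2, AFX6 and AF32. PGCs keep it too, so it does not by itself mark epiblast. The summed CPM of Pou5f1, Sox2, Nanog, Otx2, Fgf5 and Dnmt3b had medians of 3391, 2418, 1153 and 1710 in the same order. That of 5 genes of naive pluripotency had a median of 0 in every line. Single epiblast markers could be missing from a cell. Among cells with Prdm1, Prdm14, Tfap2c, Nanos3 or Dnd1 at 5 CPM or more, Fgf5 was at 0 CPM mostly in EpiSCs. These were AF32 cells 10, 12, 50 and 92, AFX6 cells 9, 75 and 87 and 5ar1 cell 26. Whether this is a trait of the EpiSC lines was not tested. The germ cell markers Dppa3 (Stella) and Ddx4 (Vasa) had no count in any kept cell of either EpiSC line and reached 5 CPM in at most 1 cell of each FS line. Intervals beside shares of cells are 95% Clopper-Pearson intervals. They cover counting error over cells only and not the spread between lines, since cells of a line share their culture. Smart-seq2 has no molecular identifiers, and copies of 1 molecule are counted as separate reads. This bears on the intervals of folds between lines, which rest on read counts.

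The 3 transcription factors of germ cell specification were found in few cells of any line, at most in the 9.09% of AFX6 cells with Tfap2c. Prdm1 and Prdm14 each reached 5 CPM in 1 of 326 cells, and Tfap2c in 8. Of all 326 cells, 10 (3.07%, 95% confidence interval 1.48–5.57%) had any 1 of the 3 genes. No cell had 2 of them. Since no line had detected cells of more than 1 of the 3 genes, the product of their shares is also 0, and the number says nothing about whether they occur together. Nanos3 was detected in 11 cells, Dnd1 in 6 and Kit in 26. Ifitm3 was the exception with 132 cells, followed by Ifitm1 with 56.

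**Figure D1:**
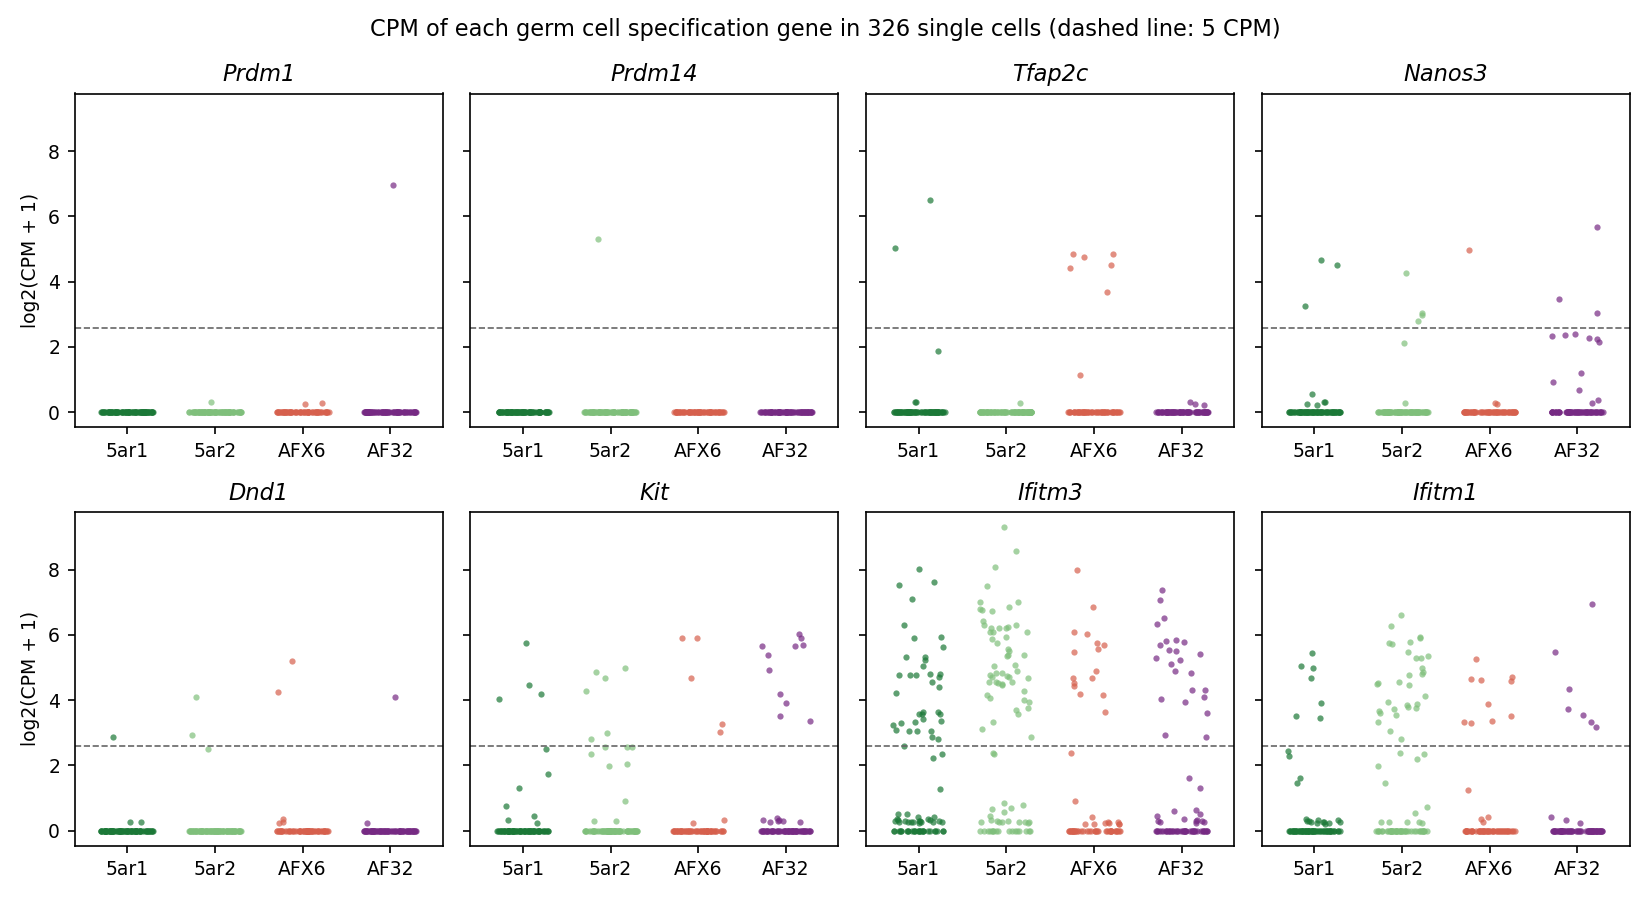
Each point is 1 of the 326 kept cells of the FS lines 5ar1 and 5ar2 and the EpiSC lines AFX6 and AF32, with the level of a gene as log2(CPM + 1) on the y axis and the threshold of 5 CPM as a dashed line. Prdm1 and Prdm14 have 1 cell each above the line, whereas Ifitm3 spreads over cells of all 4 lines up to 633 CPM.

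Prdm1 (ENSMUSG00000038151; GRCm38 chr10:44437177-44528501, minus strand) encodes the repressor that starts the germ cell programme. Summed over the cells of each line it had 0 CPM for 5ar1, 0.00230 for 5ar2, 0.00601 for AFX6 and 1.72 for AF32. The last value came from 1 cell, AF32 cell 92, with 613 counts or 124 CPM, and no other kept AF32 cell had a count. The few counts in 5ar2 and AFX6 were single reads, 1 cell with a count in the former and 2 in the latter. AF32 cell 92 also had 122 CPM of Sox1, a neural factor, with 306.5 CPM of Otx2, 68.6 CPM of Pou5f1 and 96.4 CPM of Nanog, and none of the other 7 genes reached 5 CPM in it. Foxa2 and Sox17, which mark endoderm, a tissue where Prdm1 is also used, were at 1.02 and 0 CPM in this cell. The cell type behind this Prdm1 value was not tested.

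Prdm14 (ENSMUSG00000042414; chr1:13113457-13127163, minus strand) encodes the partner that keeps differentiation signals in check. It had no count at all in 5ar1, AFX6 or AF32. With the limit set at 3 cells of the total, 0 detected cells allow a share of up to 3.33%, 4.55% and 3.75% in these lines. The upper ends of the Clopper-Pearson intervals were higher, at 4.02%, 5.44% and 4.51%. In 5ar2 its level was 0.432 CPM, all of it from cell 19 with 188 counts or 38.4 CPM. That cell also carried 28.0 CPM of Kit and 10.8 CPM of Ifitm3, with 423 CPM of Pou5f1, and had 0 CPM of Prdm1, Tfap2c, Nanos3 and Dnd1. It was the only cell of the data with Prdm14.

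Tfap2c (ENSMUSG00000028640; chr2:172549593-172558622, plus strand) encodes the AP-2 factor, which trophoblast and surface ectoderm also use. Its summed level was 1.2 CPM for 5ar1, 0.00230 for 5ar2, 2.09 for AFX6 and 0.00843 for AF32. Each group of lines therefore held 1 line above 1 CPM and 1 almost without the gene. AFX6 had 6 detected cells (9.09%, 3.41–18.7%), between 11.8 and 28.0 CPM, and 5ar1 had 2 cells, at 32.0 and 89.1 CPM. The higher of these 2, cell 41, held 71.7% of the CPM of 5ar1, which was at 0.417 CPM without it. The highest AFX6 cell held 20.5%, and AFX6 was at 1.76 CPM without it. Neither 5ar2 nor AF32 had a detected cell, and 1 and 3 of their cells held a count. The 6 AFX6 cells had no count of Dppa3, Ddx4 or Nanos3. Trophoblast markers were summed over Gata3, Hand1, Krt7 and Elf5 and ranged from 0 to 105 CPM in these 6 cells (median 0.0771) against 0 to 32.8 CPM in the other 60 AFX6 cells (median 0), with 3 of 4 markers present and Elf5 at 0. The highest sum came from 1 cell, cell 87, with 56.9 CPM of Gata3 and 47.9 CPM of Krt7, which also had 117 CPM of the fibroblast collagen Col1a1. Another of the 6, cell 17, had 69.3 CPM of Esrrb and 40.2 CPM of Tfcp2l1, which are genes of naive pluripotency. The part of these cell types in the Tfap2c level was not tested.

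Nanos3 (ENSMUSG00000056155; chr8:84173731-84185217, minus strand) was found at low level in every line. Its summed level was 0.529 CPM for 5ar1, 0.490 for 5ar2, 0.505 for AFX6 and 1.38 for AF32, and 3, 4, 1 and 3 cells of these lines were detected. In AFX6 a single cell, cell 9, held 98.7% of the CPM, and without it the level was 0.00611 CPM. Cells with any count were most frequent in AF32, with 14 of 80, against 8 of 90 in 5ar1, 6 of 90 in 5ar2 and 3 of 66 in AFX6. Of these AF32 cells 6 lay between 2.5 and 5 CPM, and others held very few reads, such as cell 1 at 0.202 CPM. These shares carry no interval, and their difference was not tested. The highest cell, AF32 cell 70 with 49.7 CPM, held 53.1% of the CPM of its line, and without it the level of AF32 was 0.577 CPM. Mean expression over chromosome 8, which carries Nanos3, was raised more than 1.2 times in 41 of 80 AF32 cells and in 0 cells of each other line. All 3 detected AF32 cells were among these 41, but cells with any count were not more frequent there, with 6 of 41 against 8 of 39. The mean was 1.85 CPM in the 41 cells, 0.651 without cell 70, and 0.458 CPM in the other 39. Chromosomes of 2 other genes were raised in AF32 by the same measure. Chromosome 10 with Prdm1 was raised in 18 of 80 cells, and the 1 cell with Prdm1 was not among them. Chromosome 2 with Tfap2c was raised in 29 of 80 cells, of which 1 had a Tfap2c count, against 2 of the other 51. In AFX6 each of these 2 chromosomes was raised in 2 of 66 cells.

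Dnd1 (ENSMUSG00000044595; chr18:36763671-36766214, minus strand) had summed levels of 0.0812 CPM for 5ar1, 0.306 for 5ar2, 0.896 for AFX6 and 0.163 for AF32, with 1, 2, 2 and 1 detected cells. The highest kept cell was AFX6 cell 13 at 35.4 CPM. The highest cell held 94.1%, 58.8%, 65.3% and 98.9% of the CPM of 5ar1, 5ar2, AFX6 and AF32. Its exons overlap those of Wdr55 on the opposite strand, and Smart-seq2 does not mark strand, so counts of Dnd1 are uncertain. Wdr55 was at a median of 77.2 CPM in the 6 cells with Dnd1 and 87.8 CPM in the other 320.

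Kit (ENSMUSG00000005672; chr5:75574916-75656722, plus strand) was the only one of the 6 genes outside the Ifitm family that exceeded 1 CPM in all 4 lines. Its summed level was 1.18 CPM for 5ar1, 1.65 for 5ar2, 2.74 for AFX6 and 4.91 for AF32. In 5ar1 a single cell, cell 95, held 45.7% of the CPM, and without it the line was at 0.668 CPM, under 1. Without its highest cell AFX6 was at 1.77 CPM. Both FS lines lay below both EpiSC lines, an order that 21.5% of the 22606 tested genes shared. Detected cells numbered 4 for 5ar1, 6 for 5ar2, 5 for AFX6 and 11 for AF32, and the interval of the AF32 share (13.8%, 7.07–23.3%) overlapped that of each other line. Detected AF32 cells had a median of 40.9 CPM against 19.1, 21.6 and 24.7 CPM in 5ar1, 5ar2 and AFX6. Kitl, the gene of its ligand, was at 1.17 CPM for 5ar1, 1.01 for 5ar2, 0.421 for AFX6 and 0.377 for AF32.

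**Figure D2:**
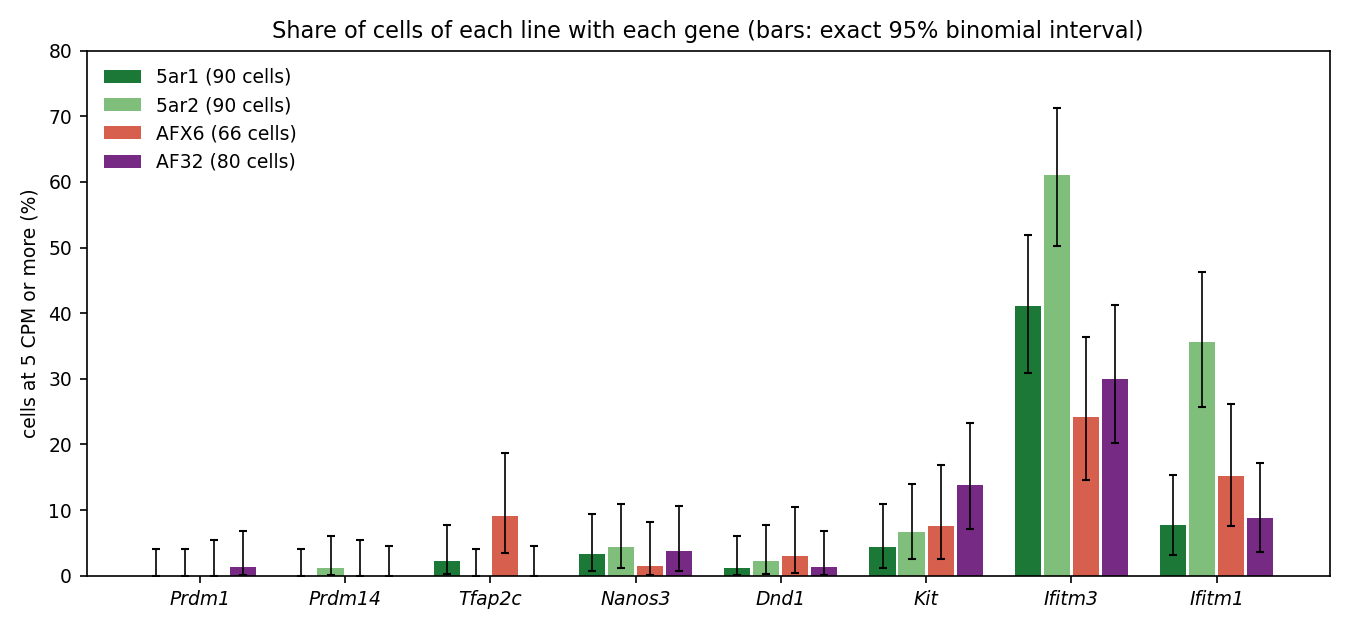
Bars give the percentage of kept cells of each line with a gene at 5 CPM or more, with exact 95% binomial intervals that cover counting error only. Ifitm3 reaches 41.1% and 61.1% in the FS lines against 24.2% and 30.0% in the EpiSC lines, and Ifitm1 stands out in 5ar2 with 35.6%.

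Ifitm3 (ENSMUSG00000025492; chr7:141009586-141010770, minus strand) was the gene of this group with the broadest expression. Its summed level was 16.2 CPM for 5ar1, 42.9 for 5ar2, 12.8 for AFX6 and 13.9 for AF32, so that both FS lines lay above both EpiSC lines, as 26.8% of tested genes did. The margin between the groups was narrow on the side of 5ar1. Detected cells made up 41.1% (30.8–52.0%) of 5ar1, 61.1% (50.3–71.2%) of 5ar2, 24.2% (14.5–36.4%) of AFX6 and 30.0% (20.3–41.3%) of AF32. Within detected cells the median was 22.7 CPM for 5ar1, 39.9 for 5ar2, 36.3 for AFX6 and 37.2 for AF32. 5ar1 thus had a larger share of cells with Ifitm3 than either EpiSC line, with intervals that overlapped theirs, and a lower median among these cells. Per kb of exon the level was 23.9, 63.2, 18.9 and 20.5 CPM in 5ar1, 5ar2, AFX6 and AF32, and no other of the 8 genes exceeded 9.97 CPM per kb.

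Ifitm1 (ENSMUSG00000025491; chr7:140967221-140969825, plus strand) lies in the same cluster on chromosome 7. Its summed level was 2.03 CPM for 5ar1, 10.9 for 5ar2, 3.01 for AFX6 and 3.25 for AF32. The level and the share of cells were highest in 5ar2: 32 of its 90 cells were detected (35.6%, 25.7–46.3%), against 7 of 90 in 5ar1 (7.78%, 3.18–15.4%), 10 of 66 in AFX6 (15.2%, 7.51–26.1%) and 7 of 80 in AF32 (8.75%, 3.59–17.2%). In AF32 a single cell with 122 CPM held 54.1% of the CPM of the line, which was at 1.33 CPM without it. Ifitm2, a neighbour and close relative, served as a contrast: it was at 167, 208, 204 and 198 CPM in 5ar1, 5ar2, AFX6 and AF32 and was detected in 89 of 90, 90 of 90, 66 of 66 and 80 of 80 cells. Reads that Ifitm genes share through near-identical sequence could be split between them or lost, since only uniquely mapped reads were counted.

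The promoters of the neighbours are shown because Ifitm genes are known as interferon targets, and the motif of an interferon-stimulated response element (ISRE) was searched in them. Each stretch runs from 250 bases before to 50 bases after the RefSeq start site on GRCm38.p6, and capitals mark the letters searched, GAAA, any 2 bases and GAAA again, on both strands.
Ifitm3, chr7:141010695-141010994, minus strand: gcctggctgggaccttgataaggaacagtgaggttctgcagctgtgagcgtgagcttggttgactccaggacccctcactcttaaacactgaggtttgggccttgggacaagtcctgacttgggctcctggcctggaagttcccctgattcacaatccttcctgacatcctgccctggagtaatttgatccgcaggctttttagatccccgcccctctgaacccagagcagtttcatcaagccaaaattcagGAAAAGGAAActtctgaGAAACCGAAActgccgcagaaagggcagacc
Ifitm1, chr7:140967826-140968125, plus strand: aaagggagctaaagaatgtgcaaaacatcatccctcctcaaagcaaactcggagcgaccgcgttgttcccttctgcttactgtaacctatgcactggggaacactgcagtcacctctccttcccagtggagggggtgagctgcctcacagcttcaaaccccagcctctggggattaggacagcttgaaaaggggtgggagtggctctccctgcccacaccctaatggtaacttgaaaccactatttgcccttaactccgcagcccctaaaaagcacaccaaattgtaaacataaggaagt
The Ifitm3 stretch held 2 matches, at bases 253 to 262 and 270 to 279 of its 300, just after the start site. The Ifitm1 stretch held 0. It covers 1 RefSeq start only, and the annotated gene begins upstream of it, at base 140967221, where no stretch was searched. Among 32851 RefSeq promoters of the same length 3.44% held a match. Promoters were found for 5 of the 8 genes (Ifitm1, Ifitm3, Kit, Nanos3 and Prdm1), and among these the ISRE letters occurred only in that of Ifitm3. The AP-2 letters GCCNNNGGC, which read the same on both strands, occurred once each in those of Kit and Nanos3 and in 16.6% of all promoters. These matches are letters in a window and not measured binding.

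FS cells and EpiSCs were then compared with lines as replicates by edgeR's quasi-likelihood test on counts summed per line, where a gene is called at an adjusted p under 0.05 with a log2 fold change over 1.4 in either direction. Of the 8 genes, 6 passed the filter on low counts and 0 were called, as were 0 of 22606 genes tested (0%). At an unadjusted p under 0.05 there were 0 of the 6 and 3636 of all tested genes (16.1%). Prdm1 and Prdm14 did not pass the filter, which works on the counts summed per line. In 5ar1, 5ar2, AFX6 and AF32 these were 0, 1, 2 and 613 for Prdm1 and 0, 188, 0 and 0 for Prdm14. Ifitm3 had a log2 fold change of 1.14 ± 0.54 (SE) in FS cells over EpiSCs (edgeR, adjusted p = 0.417), and Kit one of −1.43 ± 0.63 (adjusted p = 0.381). For Ifitm1 the value was 1.05 ± 0.91 (adjusted p = 0.693), for Nanos3 −0.88 ± 0.88 (0.740), for Dnd1 −1.47 ± 1.34 (0.711) and for Tfap2c −0.84 ± 3.01 (0.947). The mean share of cells with Ifitm3 was 51.1% ± 14.1 in FS lines and 27.1% ± 4.07 in EpiSC lines (SD, n = 2 lines each), with p = 0.33 in an exact two-sided permutation test. This is the smallest p that 2 lines against 2 allow, and the lowest over all 8 genes became 1 after Benjamini-Hochberg adjustment. DESeq2 called Prdm1 (adjusted p = 0.00976) and 1808 of 30577 genes, and behind the Prdm1 call stood the 613 counts of AF32 cell 92, with 0, 1 and 2 counts in 5ar1, 5ar2 and AFX6. The remaining alternative test, limma, called 0. The folds moved with single lines: without 5ar2 that of Ifitm3 was 0.27 and that of Ifitm1 −0.64, and without AFX6 that of Tfap2c was 6.11 and that of Dnd1 0.27.

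The FS lines differed from each other in 3 of these genes by more than the log2 fold of 1.4, although they share a medium. Of the 14694 genes at 1 CPM or more in one of them, 8.08% passed this size. Ifitm3 was 2.65-fold (95% interval of counting error 2.58–2.72) and Ifitm1 5.38-fold (5.00–5.78) higher in 5ar2. The third gene was Tfap2c, with 1 count in 5ar2 against 517 in 5ar1, a ratio of 0.00192 (4.84e-05–0.0107). Kit, at 1.402-fold (1.25–1.57) in 5ar2, did not reach this size. Without the highest cell of each line the log2 fold of Ifitm3 went from 1.41 to 1.35, below this size, and Tfap2c was at 0.417 CPM in 5ar1, below 1 CPM. That of Ifitm1 was 2.62. Between the EpiSC lines, which differ in line and medium, 20.7% of 15013 genes passed the same size. Prdm1 was 287-fold (79.0–2371) higher in AF32, with 613 counts, all of cell 92, against 2, and Tfap2c had 3 counts in AF32 against 694 in AFX6, a ratio of 0.00404 (0.000831–0.0119). Nanos3 was 2.73-fold (2.29–3.28) higher in AF32, but both levels rested on single cells, being 0.577 CPM in AF32 without cell 70 and 0.00611 CPM in AFX6 without cell 9, both below 1 CPM. Kit, at 1.79-fold (1.65–1.94), Ifitm3 and Ifitm1, both at 1.08-fold, did not reach it, and without the highest cells Ifitm1 was at 0.543-fold. The remaining genes were below 1 CPM in both lines of a pair. With 1 line on each side these are folds of libraries without a test. The intervals of these folds take copies of 1 molecule as separate reads and are likely too narrow.

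Whether the genes met in the same cells was examined over all 28 pairs. Among the 6 genes outside the Ifitm family, 51 cells (15.6%, 11.9–20.1%) had any of them and 2 cells had 2. One was 5ar2 cell 19, with Prdm14 and Kit. The other was AFX6 cell 13, with 21.6 CPM of Tfap2c beside its 35.4 CPM of Dnd1. Thus 2 of 15 such pairs occurred, each in 1 cell, where the products of the shares in each line sum to 2.77 cells over the 15 pairs. Over all 8 genes 149 cells had none, 119 had 1, 52 had 2 and 6 had 3, and no cell had more than 3. In all 12 pairs occurred in a cell or more and 16 in none, and 10 of the 12 included Ifitm3 or Ifitm1.

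**Figure D3:**
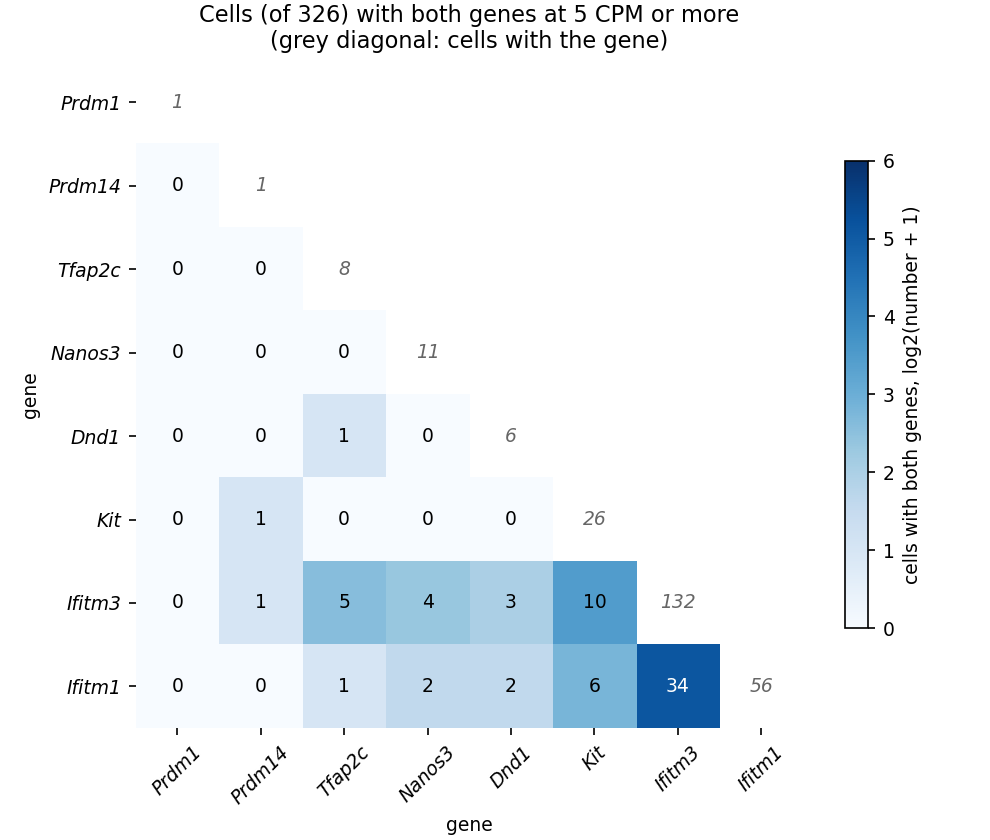
Each square gives the number of the 326 kept cells with both genes at 5 CPM or more, coloured by log2(number + 1), and the grey diagonal gives the cells with the gene itself. Prdm1, Prdm14 and Tfap2c share 0 cells, with detected cells of no more than 1 of them in any line, and the largest number, 34, belongs to Ifitm3 with Ifitm1.

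Ifitm3 and Ifitm1 met in 34 cells, where the product of their shares in each line gives 27.0. Ifitm3 was detected in 24 of the 32 5ar2 cells with Ifitm1 (75.0%, 56.6–88.5%) and in 31 of the 58 without it (53.4%, 39.9–66.7%). In 5ar1 it was 4 of 7 against 33 of 83, in AFX6 5 of 10 against 11 of 56, and in AF32 1 of 7 against 23 of 73. The share was thus higher beside Ifitm1 in 3 lines and lower in AF32, and the intervals overlapped in every line. Cells of a line share their culture and differ in depth. Across them Spearman's rho of both genes was 0.14 in 5ar1 (n = 90), 0.26 in 5ar2 (n = 90), 0.07 in AFX6 (n = 66) and 0.01 in AF32 (n = 80). Ifitm1-positive cells had more detected genes in all 4 lines, with medians of 11704.5 against 11516 in 5ar2 and 10919.5 against 10292 in AFX6. Among cells at or above the median of detected genes the share with Ifitm3 was higher beside Ifitm1 in 5ar1 (75.0% against 36.6%), 5ar2 (84.2% against 61.5%) and AFX6 (62.5% against 20.0%) and lower in AF32 (25.0% against 44.4%). Below the median it was higher in 5ar2 (61.5% against 46.9%) and lower in 5ar1 (33.3% against 42.9%), AFX6 (0% against 19.4%) and AF32 (0% against 18.9%), where 2 or 3 cells had Ifitm1. Tfap2c met Ifitm3 in 5 cells, both of the 5ar1 cells and 3 of the 6 AFX6 cells with Tfap2c, where the product of shares gives 2.28. Kit met Ifitm3 in 10 cells with a product of 9.82, and Nanos3 met it in 4 with 4.82.

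Other cell types were looked for in cells with Ifitm3. In 5ar1 the summed trophoblast markers had a median of 6.17 CPM in the 37 detected cells and 0 in the other 53, with ranges of 0–295 and 0–277 CPM. Elf5 and Gata3 had no count in the detected cells, and the sum came mostly from Hand1, which was at 23.5 CPM in 5ar1 and at most 0.261 CPM in the other lines. Germ cell markers (Dppa3, Ddx4 and Nanos3, the last itself one of the 8 genes) had a median of 0 CPM in detected and other cells of every line. The part of Hand1 in the Ifitm3 level was not tested.

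A few cells held very little Pou5f1, and they carried some of the highest values of the germ cell genes. They were picked out after their values had been seen, so these are descriptions without a test. Only 6 of 326 cells had Pou5f1 under 5 CPM, 2 for 5ar1, 1 for 5ar2, 1 for AFX6 and 2 for AF32. PGCs of the embryo keep Pou5f1. 5ar1 cell 41 had the highest Tfap2c of the kept cells (89.1 CPM) with 197 CPM of Ifitm3, 3.68 CPM of Pou5f1, 0.789 CPM of Nanog and 5.52 CPM of Dnmt3b. 5ar1 cell 26, with 24.5 CPM of Nanos3, had 3.41 CPM of Pou5f1 and 59.1 CPM of Eomes. AF32 cell 70, which had the highest Nanos3, also had 166 CPM of Ifitm3, the highest among kept cells of its line, beside 2369 CPM of T (Brachyury), 74.9 CPM of Tbx3 and 1.89 CPM of Pou5f1. 5ar2 cell 49 had the highest Ifitm3 of all cells, 633 CPM, with 39.6 CPM of Ifitm1 and the fibroblast collagens Col1a1 and Col1a2 at 1867 and 738 CPM. In the other pair, 1 of AFX6 and 1 of AF32, no gene of the 8 reached 5 CPM. The 5ar1 cells were among the 4.44% of their line with the fewest detected genes.

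**Figure D4:**
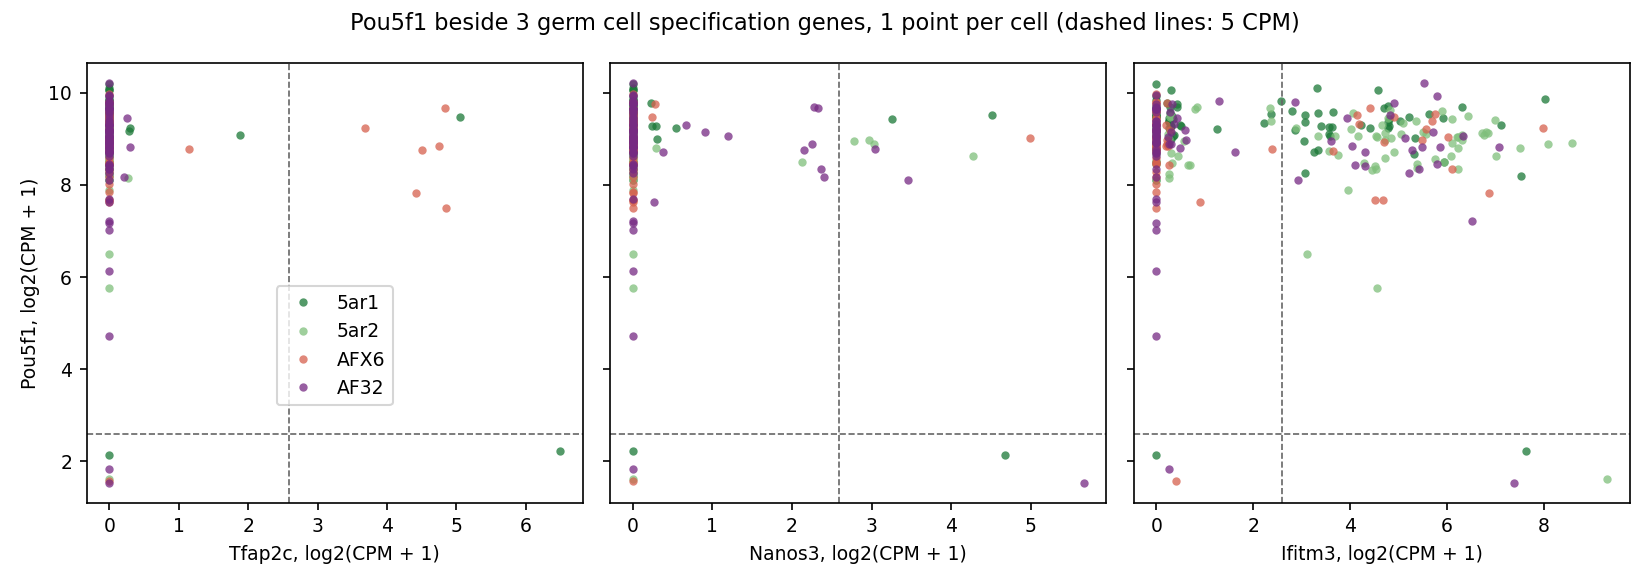
Each point is a kept cell, with Pou5f1 on the y axis and Tfap2c, Nanos3 or Ifitm3 on the x axis as log2(CPM + 1), coloured by line, and dashed lines at 5 CPM. The 6 cells under the horizontal line include the highest cell of each of the 3 genes. Above it lie 320 of all 326 cells, with 7 of 8 cells with Tfap2c, 9 of 11 with Nanos3 and 129 of 132 with Ifitm3.

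Most detections were in cells with Pou5f1, which made up 320 of all 326 cells. Pou5f1 was present in 26 of 26 cells with Kit, 6 of 6 with Dnd1 and 55 of 56 with Ifitm1. Of the 6 Pou5f1-low cells 2 had Nanos3, 1 had Tfap2c and 3 had Ifitm3, against 9, 7 and 129 of the other 320. Without the 6 Pou5f1-low cells Ifitm3 was detected in 40.9% of 5ar1, 60.7% of 5ar2, 24.6% of AFX6 and 29.5% of AF32. The highest single cells weighed more on summed levels: without its highest cell, Ifitm3 was at 14.0 CPM for 5ar1, 35.5 for 5ar2, 9.54 for AFX6 and 11.3 for AF32, in the same order of groups.

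The wider germ cell programme was read from a list of 32 genes, of which 28 were in the table and 27 were tested. None was called in either direction by edgeR (lowest adjusted p = 0.190). An unadjusted p under 0.05 was found for 10 of the 27 and for 3636 of all 22606 tested genes (16.1%). The median log2 fold change was 0.31 against −0.01 over all tested genes. The list was chosen with earlier results of these data known, so neither comparison with all genes can show an enrichment. Genes for receiving the signal were measured in every line, at different levels. The BMP receptor gene Bmpr1a was at 38.6, 23.6, 14.2 and 25.7 CPM and the effector Smad1 at 17.7, 17.1, 7.61 and 20.6 CPM in 5ar1, 5ar2, AFX6 and AF32. The receptor genes Acvr1 and Bmpr2 were lower, at 4.29, 2.92, 4.01 and 4.24 CPM and at 7.70, 2.57, 6.03 and 11.9 CPM in the same order, and were detected in 7.50–13.3% and 15.6–37.5% of the cells of a line. Eomes, a factor of the epiblast and primitive streak, was at 61.3 and 48.2 CPM in the FS lines against 6.62 and 5.84 CPM in the EpiSC lines (log2 fold change 3.13 ± 0.27, adjusted p = 0.190). Otx2, which restrains entry into the germ line, was at 175 and 178 CPM against 118 and 110 CPM (0.62 ± 0.16, adjusted p = 0.203). The listed genes T and Wnt3 went the other way, at −6.91 ± 2.35 and −1.60 ± 0.40, and Foxd3 was at 0.49 ± 0.47. Fut4 (9.62 ± 1.61), Ddx4 (9.38 ± 1.64), Lin28a (1.77 ± 0.41) and Sall4 (1.48 ± 0.46) had higher values in FS cells, none called (edgeR, adjusted p 0.190 to 0.250). Of these, Ddx4 reached 5 CPM in at most 1 cell of each FS line. The other surface markers of the list were at 2.39 ± 2.45 (Itgb3) and −0.40 ± 0.28 (Alpl). Nanos1 was at 2.125 ± 1.154, Kitl at 1.44 ± 0.75 and Cxcr4 at −0.21 ± 1.185. Prmt5, the methyltransferase that works with Prdm1, was at 369 and 316 CPM against 172 and 201 CPM. Cbfa2t2, the partner of Prdm14, was at 47.8 and 28.7 against 68.5 and 106 CPM. Ehmt1, also listed as a partner, had a log2 fold change of −0.09 ± 0.24.

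Genes whose level followed a member most closely were sought by the mean Spearman's rho within lines, for genes detected in at least 10% of the cells of 2 or more lines. For Ifitm3 no gene of 10272 reached a mean rho of 0.3 over the 4 lines. For Ifitm1, over 5ar2 and AFX6 and 10815 genes, they were Sharpin (0.34), Ebf1 (0.32) and Gnao1 (0.32). The cells of a line share their culture and differ in depth, and correlations of this size in sparse counts were not read as findings.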

How the data were processed

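Single cells of 4 mouse lines were sorted into wells and processed by Smart-seq2. The authors aligned reads to GRCm38 with STAR 2.7.3a and counted uniquely mapped reads per gene with featureCounts 2.0.0, and the deposited table holds these raw counts. The other deposited table gives 23574 genes in the 326 kept cells as a score that the authors had corrected for depth with sctransform. It lists 6 of the 8 genes and was used only as an alternative.

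Cells with at least 3000000 counts were kept, 58 of 384 being left out, and 0 cells had identical counts. No doublet caller was run, since cells were sorted singly. Where 0 cells were detected, the limit given is 3 cells of the total. Sums of counts per line were compared by the quasi-likelihood test of edgeR 4.0.16 in R 4.3.3, with TMM factors and filterByExpr and Benjamini-Hochberg adjustment over all genes, after the fit had been tested on simulated data. DESeq2 1.42.0 and limma 3.58.1 on log2(mean CPM + 1) were alternatives, as were other depths, thresholds, cells and lines. Nothing says that lines were prepared separately, so p-values measure the spread between lines, which may be partly technical. Folds between single lines carry exact conditional intervals. Python 3.11.15, scipy 1.17.1 and matplotlib 3.10.9 were used. Positions and exon lengths come from GENCODE M21. Chromosome means used 6901 protein-coding genes averaging 20 CPM or more.

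The 8 genes, the programme list and the marker lists were chosen with earlier results of these data known. Named are the 8 genes, listed genes where they bear on them, and up to 3 nearest genes with a mean rho of at least 0.3. Single cells and Pou5f1-low cells were chosen after their values were seen. Listed genes without a row in the table were not analysed here.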

Additional observations from a re-analysis of the deposited data

Results flagged for a closer look

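The 58 cells with fewer than 3000000 counts entered none of the comparisons above, and some of them held these genes above 5 CPM with more than 3 counts. Tfap2c was at 100.9 CPM (207 counts) in an AF32 cell, although 0 of the 80 kept AF32 cells had it at 5 CPM. Nanos3 was at 11.7 CPM in an AF32 cell. Dnd1 was at 218 CPM (291 counts) in an AFX6 cell, above the 35.4 CPM of the highest kept cell. Ifitm3 reached 35.7 CPM in 5ar1 (2 cells), 176 CPM in AFX6 (2 cells) and 213 CPM in AF32 (3 cells), the last above the 166 CPM of the highest kept cell of that line. Ifitm1 reached 6.53 CPM in 5ar2, 139 CPM in AFX6 and 141 CPM in AF32, with 1 cell each. Prdm1 and Prdm14 had no count in any of the 58 cells, and Kit stayed at or below 1.195 CPM.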

How the results depend on the processing

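The number of cells with Prdm1, Prdm14 and Tfap2c together was 0 in all 9 settings that list the genes, but no line had detected cells of more than 1 of them at 5 CPM, so this says nothing about stability. The sctransform values lack Prdm1 and Prdm14 and could not give this number. No gene of the 8 was called in 12 of 13 settings. The exception was DESeq2, which called 1, with 1808 genes called in all against 0 by edgeR. Of 78 log2 fold changes 74 kept their direction. With lines left out in turn, Tfap2c ranged from −8.68 to 6.11, above 0 without 5ar2 (0.16) and without AFX6 (6.11), Ifitm1 from −0.64 (without 5ar2) to 1.78, and Dnd1 from −2.73 to 0.27 (without AFX6). Ifitm3 fell to 0.27 without 5ar2. The difference of shares of cells (FS minus EpiSC) turned for Nanos3 from 1.26 to −2.56 percentage points at 1 CPM and −3.24 at 1 count or more, and for Dnd1 from −0.473 to 0.107 in cells with at least 4000000 counts and 0.0821 at 1 CPM. Among Ifitm1-positive cells, Ifitm3 was found in 90.9% of 5ar2 cells at 1 count or more and in 0% of AF32 cells (0 of 5) at 4000000 counts or more. Of 312 shares of cells 297 stayed within their counting interval, and of 160 levels, which include means and medians per cell, 76 did. Of the 84 levels that moved, 28 were medians of CPM per cell and 26 were levels without the highest cell. The cause of the other moves was not tested. Leaving out the Pou5f1-low cells or the highest cell of a gene was chosen after seeing the data. No paired analysis was possible because the lines are the replicates and share no number. With 2 lines a group, only differences far above the spread between lines can pass. Where no cell was detected, 66 to 90 cells a line allow a share of 3.33% to 4.55% by the limit of 3 cells. The Clopper-Pearson intervals reach 4.02% to 5.44%.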
